A study of Macaca mulatta with 14 samples.

Results

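Chemokine receptors of blood leukocytes were measured in PBMC (peripheral blood mononuclear cells, a blood fraction of lymphocytes and monocytes) from 14 rhesus macaques, all male. The rule named 9 genes, CCR1, CCR2, CCR6, CCR7, CXCR3, CXCR4, CXCR5, CXCR6 and CX3CR1, and took every probe set of the Affymetrix array annotated to one of them alone. It found 8 probe sets among 52865 on the array, 1 each for 8 of the 9 genes, all 8 with the same symbol in the current gene table. CXCR5, the receptor that guides B cells and follicular helper T cells into lymphoid follicles, had no single-gene probe set listed in the annotation and was not analysed here. The probe set of CCR2 lay under the signal filter, so 7 receptors were tested.

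By the labels, 7 animals ate a control diet and 7 a calorie restricted (CR) diet, with 1 array per animal and no other agent or genotype named. Control animals were 24 to 27 years old and CR animals 24 to 30 years old when blood was drawn. A duration of 16 years of CR is stated for control and CR animals alike, and was taken to hold for the CR animals. The study asked how long-term CR relates to gene expression in these cells. Age was given only as a range per group and could not be used as a covariate.

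Chemokine receptors are G protein-coupled receptors on the leukocyte surface. They bind small secreted chemokines, signal through inhibitory G proteins, and steer cells along chemokine gradients out of blood and within tissues. Each blood cell type carries a characteristic set: CCR1 and CCR2 are receptors of monocytes, CX3CR1 of patrolling monocytes and cytotoxic lymphocytes, CXCR3 and CXCR6 of effector T and NK cells, CCR6 of B cells and Th17-type T cells, CCR7 of naive and central memory T cells, and CXCR4 of nearly all leukocytes. In the current rhesus gene table (assembly T2T-MMU8v2.0, used for gene order only), CXCR6, CCR1 and CCR2 lie in 1 cluster of receptor genes on the same chromosome, with XCR1 between CXCR6 and CCR1 and CCR3 between CCR1 and CCR2. CX3CR1 is on that chromosome beside CCR8, and the other members are on other chromosomes.

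The signal of a probe set is a MAS5 intensity, tested on the log2 scale after values under 16 were set to 16. The defining markers of the expected cell types were above the signal filter, with control means of 12.69 (log2 signal) for MS4A1 of B cells, 11.26 for CD5 of T cells, 11.57 for NKG7 of NK and cytotoxic T cells and 10.15 for CD14 of monocytes. Arrays correlated with each other at r of 0.861 to 0.953 over the tested probe sets, and control 1 stood lowest with a median r of 0.879. Cell type markers were not level between the diets. All 13 tested monocyte markers had lower means in CR, with summed signals of 45438 to 128216 in controls and 17629 to 86560 in CR. All 5 tested neutrophil markers and 4 of 5 dendritic cell markers were lower too. Higher means were found for 12 of 15 NK and cytotoxic markers and 5 of 6 T cell markers. Summed NK and cytotoxic signals were 100880 to 202588 in controls and 164522 to 302406 in CR. Of the NK and cytotoxic markers, 5 had an unadjusted p under 0.05 (limma), and of the T cell markers 3, all higher in CR. Of the monocyte, neutrophil and dendritic cell markers 0 did, and of all tested probe sets 5.12% did. These counts use the brightest probe set of each gene, and other probe sets did not always share its direction. Those of KLRD1 went both ways (0.43, -0.58 and -0.20), that of GNLY was lower (-0.067) and that of CD5 higher (0.19). None of these markers passed the test over all probe sets. The monocyte marker score, the mean log2 signal of those markers relative to their means over all arrays, was lowest in CR 6 (-1.26) and CR 7 (-1.06), against -0.61 to 0.72 in controls. In such bulk samples fewer cells of a type and less RNA per cell cannot be told apart.

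No chemokine receptor separated the diets. Of the 7 tested receptors, CXCR6, CXCR4 and CXCR3 had higher means in CR and CCR1, CCR7, CCR6 and CX3CR1 lower means, with differences between -0.26 and 0.31 on the log2 scale. None passed an adjusted p under 0.05 (limma over all 26383 tested probe sets, of which 0% were called), and none had an unadjusted p under 0.05, which 5.12% of all tested probe sets had (1350). The groups overlapped for every one of the 7, as they did for all but 0.0834% of tested probe sets. The median difference of the 7 was -0.037, beside -0.012 over all tested probe sets, with 48.1% of all probe sets higher by mean in CR and 51.9% lower, against 3 and 4 of the 7. The spread between animals was larger in CR for 6 of the 7, all but CCR6, beside 46.9% of all tested probe sets, and this difference in spread was not tested. The 95% intervals were wide, from a width of 0.90 log2 units for CXCR3 to 1.73 for CCR1, so modest differences were not detectable with 7 animals per diet.

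**Figure D1:**
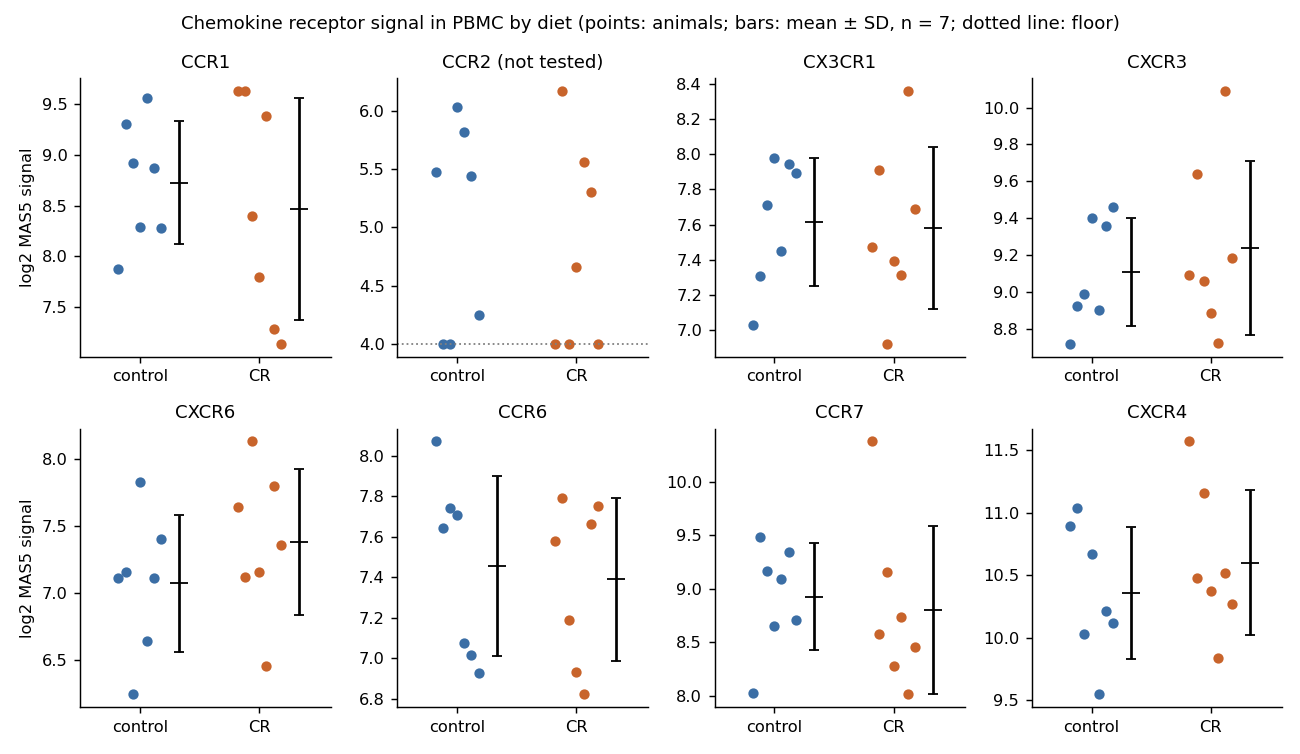
Log2 MAS5 signal (y axis, a different range in each panel) of 8 chemokine receptors by diet (x axis), with 1 point per animal and bars for mean ± SD (n = 7). The diets overlap in every panel; CCR2 is shown without bars because 5 of its 14 values lie at the floor (dotted line), and it was not tested.

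Of the 7 tested receptors, the monocyte receptor CCR1 had the widest spread between animals. CCR1, which binds CCL3 and CCL5 and draws monocytes to inflamed tissue, had signals of 234 at the lowest, 467 at the median and 755 at the highest in controls. In CR animals the lowest was 141, the median 338 and the highest 792. CR values lay at both ends: CR 2 and CR 1 held the 2 highest of all 14 signals and CR 7 and CR 6 the 2 lowest. On the log2 scale CCR1 was at 8.73 ± 0.61 (SD, n = 7) in controls and 8.47 ± 1.09 in CR. The difference was -0.26 ± 0.41 (SE; 95% interval -1.12 to 0.60), a fold of 0.835, with an adjusted p of 0.957 (limma). Its spread within a diet was larger than that of 90.4% of tested probe sets.

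The sign of the CCR1 difference turned when the monocyte signal of the arrays was taken into the fit or its lowest arrays were left out. Without CR 6 and CR 7 it was 0.24 ± 0.36, and with the monocyte marker score as a covariate 0.41 ± 0.24, in both cases on the higher side and without passing (adjusted p 0.913 and 0.681, limma). CCR1 signal followed that score across animals, with Pearson's r = 0.871 (permutation p = 6e-05, adjusted p = 0.00048 over 8 relations) and Spearman's rho = 0.763 (permutation p = 0.00234, adjusted p = 0.0187) over 14 arrays. Within the controls r was 0.845 and within the CR animals 0.914 (n = 7 each, exact permutation p = 0.00873 in each, adjusted p = 0.0698). Without CR 6 and CR 7, the arrays farthest from the median score, r was 0.749 (permutation p = 0.00464, adjusted p = 0.0186), so the relation held without them. CCR1 was set against the monocyte score alone, and CR 6 and CR 7 were also lowest for the platelet, neutrophil and dendritic cell scores. Whether the relation is particular to monocyte markers was not tested.

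CCR2, the receptor for CCL2 that releases classical monocytes from bone marrow, was dim throughout. Its signal ran from 1.76 to 65.2 in controls, with a median of 43.5, and from 2.56 to 71.9 in CR, with a median of 25.3. On 5 of 14 arrays it was under 16, and its geometric mean of 30.0 lay under the lowest mean tested, 87.7. No order between animals or diets was read from these values.

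CX3CR1, the fractalkine receptor of patrolling monocytes and cytotoxic lymphocytes, had signals of 131, 210 and 252 (lowest, median and highest) in controls and 121, 178 and 328 in CR. CR 6 was the highest array and CR 3 the lowest, and 2 of 7 CR values lay above the control median. The log2 means were 7.62 ± 0.36 in controls and 7.58 ± 0.46 in CR (SD, n = 7). They differed by -0.037 ± 0.24 (SE; 95% interval -0.54 to 0.47; adjusted p = 0.992, limma), and the sign turned with quantile normalization (0.010 ± 0.25). It also turned with control 4 (0.023), control 6 (0.017), control 7 (0.0091), CR 3 (0.072) or CR 5 (0.0070) left out, and with the GAPDH 3-prime to 5-prime ratio as a covariate (0.095). Neither relation of CX3CR1 with a marker score passed. With the monocyte score r was -0.081 (permutation p = 0.779) and rho 0.020 (permutation p = 0.951), and without CR 6 and CR 7 r was 0.544 (permutation p = 0.0683, adjusted p = 0.137). With the NK and cytotoxic score r was 0.130 (permutation p = 0.659) and rho 0.086 (permutation p = 0.772), and r was 0.356 without control 4 and control 5.

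CXCR3 and CXCR6 are receptors of effector lymphocytes, and neither passed the test between diets. CXCR3, the receptor for the interferon-induced chemokines CXCL9, CXCL10 and CXCL11, had signals of 421, 507 and 705 (lowest, median and highest) in controls and 423, 545 and 1092 in CR. The CR 6 and CR 2 animals were the highest of all 14, and the other CR values lay inside the control range. Its log2 mean was 9.11 ± 0.29 in controls and 9.24 ± 0.47 in CR (SD, n = 7), a difference of 0.13 ± 0.21 (SE; 95% interval -0.31 to 0.58; adjusted p = 0.957, limma). Without CR 6 alone the difference was -0.0086, and with array weights -0.025 ± 0.20.

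CXCR6, which binds the membrane-anchored chemokine CXCL16 and marks effector and tissue-homing T cells, had the largest difference of the 7 by size. Signals were 75.7, 138 and 227 (lowest, median and highest) in controls and 87.5, 164 and 280 in CR, and 6 of 7 CR values lay above the control median. CR 3 was highest and control 3 lowest, and the ranges overlapped almost throughout. The log2 mean was 7.07 ± 0.51 in controls and 7.38 ± 0.55 in CR (SD, n = 7), a difference of 0.31 ± 0.29 (SE; 95% interval -0.30 to 0.92), a fold of 1.24, with an adjusted p of 0.932 (limma). The difference stayed on the higher side under each alternative run, between 0.16 and 0.46, and it was smallest with the monocyte score as a covariate. NK and cytotoxic markers also had higher means in CR, and their part in this difference was not tested.

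Against the NK and cytotoxic score, CXCR6 gave r = 0.469 (permutation p = 0.0909, adjusted p = 0.356) and rho = 0.587 (permutation p = 0.0309, adjusted p = 0.124) over 14 arrays. By diet, r was -0.026 in controls and 0.820 in CR (exact permutation p = 0.027, adjusted p = 0.108, n = 7), and whether the diets differ in it was not tested. Without control 4 and control 5, the arrays farthest from the median score, r was 0.807 (permutation p = 0.00155, adjusted p = 0.0124), and without control 4 alone 0.771 (adjusted p = 0.00828). Control 4 had the second highest CXCR6 signal (227) and a low NK score (-0.48). CXCR3 against the same score gave r = 0.422 (permutation p = 0.133, adjusted p = 0.356) and rho = 0.468 (permutation p = 0.0938), and r = 0.642 (adjusted p = 0.0622) without the same pair of arrays. It was 0.193 without CR 6 alone, 0.174 without CR 6 and CR 7, 0.115 within controls and 0.641 within CR.

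CCR6, the receptor for CCL20 on B cells and Th17-type T cells, had a spread within a diet larger than that of 39.9% of tested probe sets. This share was lower still for CXCR3 (33.3%) and CX3CR1 (38.2%). Its signals were 122, 200 and 269 (lowest, median and highest) in controls and 113, 192 and 221 in CR, with control 1 highest and CR 5 lowest. The log2 means were 7.46 ± 0.44 and 7.39 ± 0.40 (SD, n = 7), a difference of -0.065 ± 0.25 (SE; 95% interval -0.59 to 0.46; adjusted p = 0.983, limma). The sign turned without control 1 (0.038), without CR 5 (0.030) or without CR 4 (0.011). With the B cell score r was 0.097 (permutation p = 0.735) and rho 0.130 (permutation p = 0.659) over 14 arrays. It was 0.663 in controls and -0.361 in CR, and 0.034 without CR 1 and control 5.

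CCR7, which brings naive and central memory T cells and mature dendritic cells into lymph nodes along CCL19 and CCL21, had signals of 261, 544 and 719 (lowest, median and highest) in controls and 259, 383 and 1337 in CR. The highest value was that of CR 1, the other CR values lay at or inside the control range save CR 6 just under it, and 2 of 7 CR values lay above the control median. The log2 means were 8.93 ± 0.50 in controls and 8.80 ± 0.79 in CR (SD, n = 7). The difference was -0.12 ± 0.32 (SE; 95% interval -0.79 to 0.54; adjusted p = 0.974, limma), and without CR 1 it was -0.39. The sign turned without CR 6 and CR 7 (0.10 ± 0.33) and with the monocyte score as a covariate (0.28 ± 0.26). Against the naive and memory T score, built from 4 tested markers, r was 0.316 (permutation p = 0.271) and rho 0.191 (permutation p = 0.513), and r was 0.341 without control 2 and control 3. It was 0.186 without CR 1 alone, 0.196 without control 2 alone, 0.137 within controls and 0.469 within CR.

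CXCR4, the CXCL12 receptor that holds leukocytes in bone marrow, had signals of 747, 1187 and 2109 (lowest, median and highest) in controls and 913, 1432 and 3047 in CR. CR 1 and CR 3 were highest and control 5 and CR 5 lowest, and 6 of 7 CR values lay above the control median. The log2 means were 10.36 ± 0.53 and 10.60 ± 0.58 (SD, n = 7), a difference of 0.24 ± 0.27 (SE; 95% interval -0.33 to 0.81; adjusted p = 0.943, limma). Without CR 1 the difference was 0.079, and it stayed on the higher side under each alternative run. T cell markers also had higher means in CR. With the T cell score r was 0.380 (permutation p = 0.181) and rho 0.420 (permutation p = 0.137), and without CR 6 and control 5 r was 0.199.

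**Figure D2:**
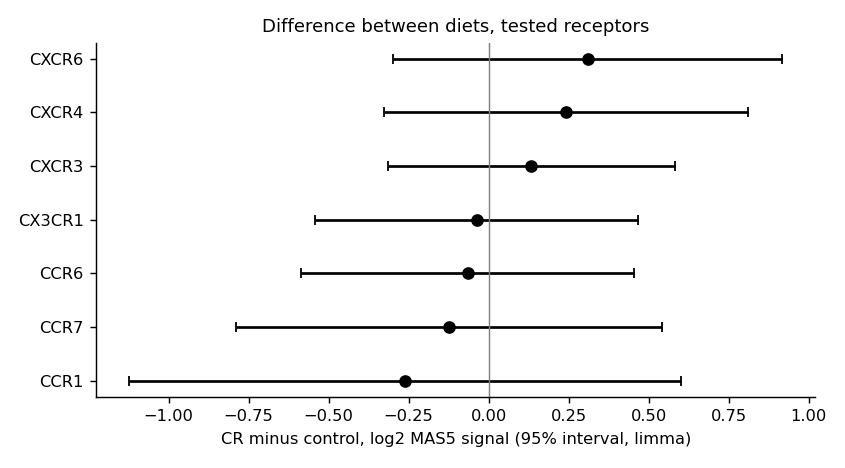
Difference CR minus control in log2 MAS5 signal (x axis) for the 7 tested receptors (y axis), with points for the limma estimate and bars for its 95% interval. Every interval includes 0, and the estimates run from -0.26 for CCR1 to 0.31 for CXCR6.

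**Figure D3:**
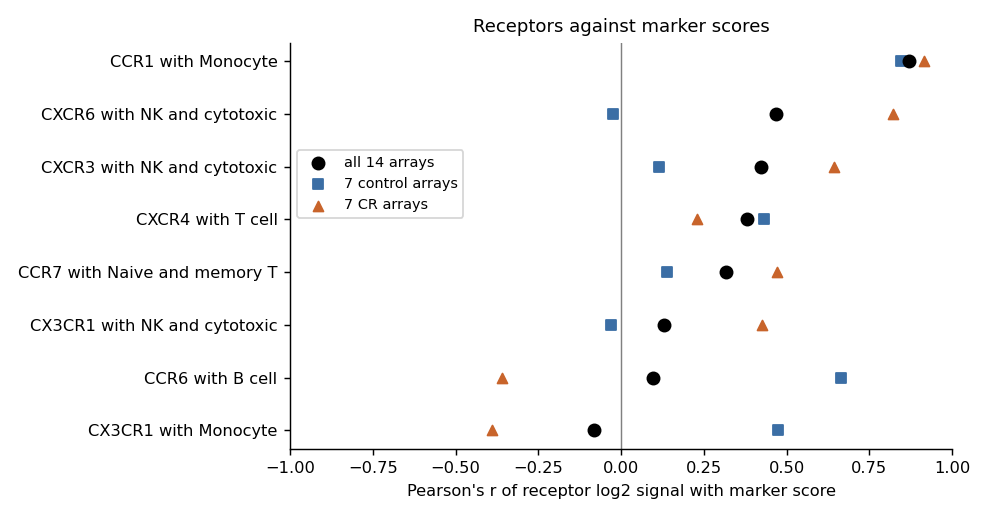
Pearson's r (x axis) between each receptor's log2 signal and the marker score of a cell type it is known for (y axis), over 14 arrays (circles), 7 control arrays (squares) and 7 CR arrays (triangles). CCR1 with the monocyte score is the relation at 0.871, with both diets close to it, and it alone passed over the 8 relations with all arrays.

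Over the 21 pairs of tested receptors, a comparison added after seeing the data, r was above 0 in 11. An adjusted p under 0.05 for r was reached by 1 pair, and 3 had an unadjusted p under 0.05. CXCR3 and CX3CR1 varied together, with r = 0.855 (permutation p = 0.00013, adjusted p = 0.00273) and rho = 0.824 (permutation p = 0.00063, adjusted p = 0.0132). Within controls r was 0.930 and within CR 0.863, and without CR 2 and CR 6, the arrays farthest from the median of CXCR3, it was 0.776. The call ended without CR 6 and CR 7 (r = 0.786, adjusted p = 0.0615) and within either diet alone (exact permutation, adjusted p = 0.0875 in controls and 0.242 in CR). CCR1 and CCR7 gave r = 0.690 (permutation p = 0.00497, adjusted p = 0.0522) and rho = 0.657 (permutation p = 0.0132), and r = 0.622 without CR 6 and CR 7. This pair passed in 4 of 21 alternatives and did not in 17. It passed with quantile normalization (adjusted p = 0.0413), median centring (0.0425), without CR 2 (0.0102) and without CR 5 (0.0418). The adjusted p (permutation) was 0.180 without CR 6 and CR 7 and 0.385 within CR. CXCR4 and CXCR6 gave r = 0.671 (permutation p = 0.00818, adjusted p = 0.0573) and rho = 0.697 (permutation p = 0.00672), and r = 0.641 without CR 1 and control 5. With quantile normalization r of CXCR4 and CXCR6 was 0.539 (permutation, adjusted p = 0.327), and the pair passed in none of 21 alternatives. CCR1 and CXCR6 of the same gene cluster had r = -0.415 (permutation p = 0.142, adjusted p = 0.495; rho = -0.358, permutation p = 0.209), and -0.330 without CR 6 and CR 7.

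**Figure D4:**
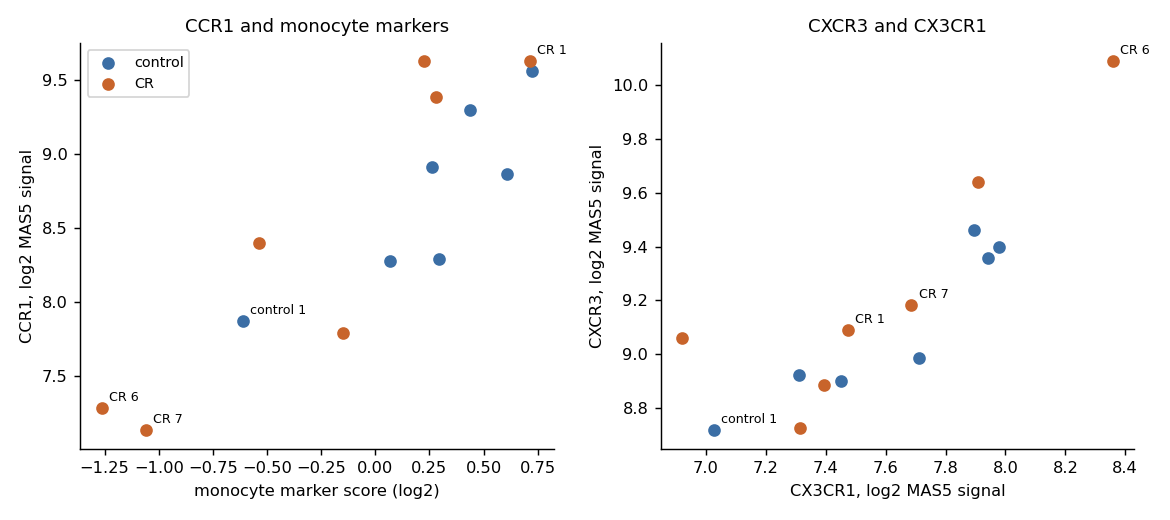
Left, CCR1 log2 signal (y axis) against the monocyte marker score (x axis); right, CXCR3 (y axis) against CX3CR1 (x axis), both in log2 MAS5 signal, with 1 point per animal coloured by diet. CR 6 and CR 7 sit at the lower left of the CCR1 plot, and CR 6 at the upper right of the CXCR3 plot.

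Single animals held opposite extremes of different receptors. CR 6 had the highest CXCR3 (1092) and CX3CR1 (328) signals of the 14 and the lowest CCR7 signal (259). CR 1 had the highest CCR7 (1337) and CXCR4 (3047) signals and the second highest CCR1 signal (791). CR 5 had the lowest CCR6 signal (113) and the second lowest CXCR3, CXCR4 and CXCR6 signals. Control 1, the array least like the others, had the highest CCR6 signal (269) and the lowest CXCR3 signal (421).

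**Figure D5:**
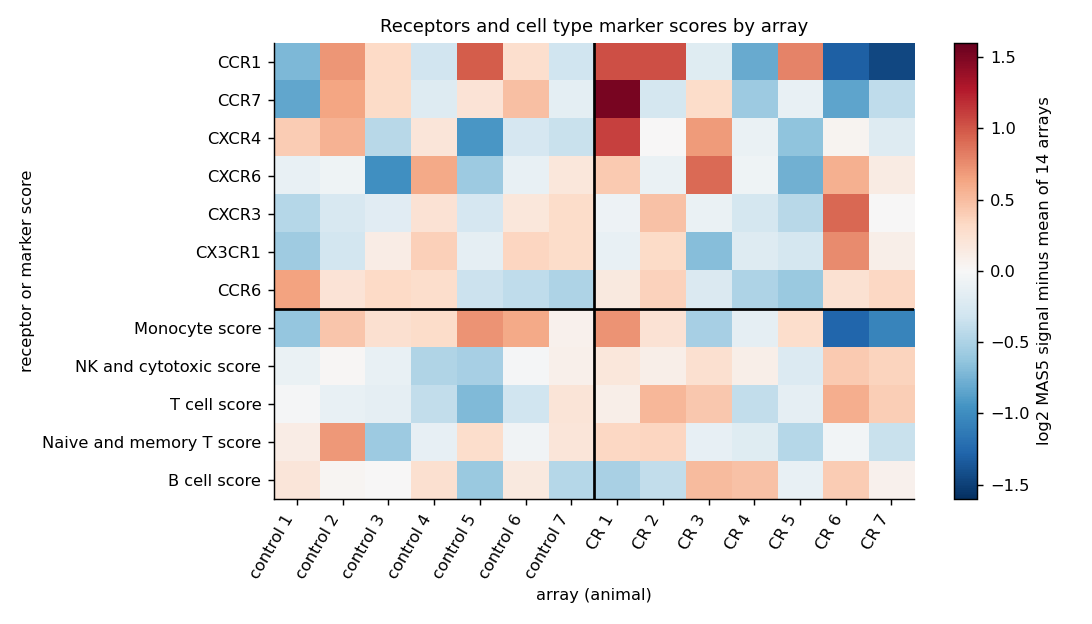
Log2 MAS5 signal of the 7 tested receptors and the scores of 5 marker lists (rows) relative to the mean of the 14 arrays, by array (columns, controls left of the vertical line). CCR1 is lowest in CR 6 and CR 7, the arrays with the lowest monocyte score, and CR 1 is highest for CCR7 and CXCR4.

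A search over 9355 genes with 14 arrays picks high r values, and how high they run without any relation was not tested. As a description, the genes most like each receptor were those with the highest Pearson's r after each diet was centred on its mean. For CCR1 they were CPVL, a carboxypeptidase of macrophages (r = 0.961), CXCL11, a CXCR3 ligand (0.942), and the quinone reductase NQO2 (0.936). For CXCR3 they were CX3CR1 (0.879), the heat shock protein HSPH1 (0.838) and ZBTB49 (0.825), and for CX3CR1 they were CXCR3, the RNA helicase DDX42 (0.870) and again HSPH1 (0.864). CCR7 was nearest to GSTT1, a glutathione transferase (0.931), IDH3B, a subunit of mitochondrial isocitrate dehydrogenase (0.905), and SPNS1 (0.902). CXCR4 was nearest to PDZRN3 (0.874), SYF2, a splicing factor (0.848), and NSUN3 (0.818). CCR6 was nearest to ARVCF of the catenin family (0.889), the methionine synthase MTR (0.875) and ARHGAP23 (0.855), and CXCR6 to LOC693291 (0.826), HAL, histidine ammonia-lyase (0.813), and WRAP73 (0.807).

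The rest of the pathway gave no call either. Of 15 other chemokine receptors 10 had a single-gene probe set and 5 were tested, 2 with higher and 3 with lower means in CR, a median difference of -0.13 and 0 at an unadjusted p under 0.05. CCR3, a receptor of eosinophils and basophils, differed by -0.29 ± 0.37 (SE), the atypical receptor CCRL2 by 0.17 ± 0.22 and the CXCL12 scavenger ACKR3 by -0.19 ± 0.25, with adjusted p of 0.950 to 0.951 (limma). CXCR1 and CXCR2, like CCL4, S1PR1 and GNAI2 of the other lists, had no single-gene probe set listed.

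Of 43 chemokine ligands 20 were tested, 8 with higher and 12 with lower means in CR (median -0.12), and 0 had an unadjusted p under 0.05. CCL5, a ligand of CCR1, differed by 0.74 ± 0.36, though its other probe set gave -0.061 ± 0.27. CXCL12, the ligand of CXCR4, differed by -0.86 ± 0.42 (another probe set gave -0.50 ± 0.52), and CCL3, a ligand of CCR1, by -0.76 ± 0.43 (its other probe sets gave -0.57 ± 0.47 and -0.23 ± 0.42). The adjusted p was 0.918 for all 3 (limma). CXCL16, the ligand of CXCR6, differed by -0.18 ± 0.23 and CCL2, the ligand of CCR2, by -0.48 ± 0.60. CX3CL1 and CXCL10 were under the signal filter.

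Among 29 tested genes of receptor signalling, 15 had higher and 14 lower means in CR, with a median of 0.060. An unadjusted p under 0.05 (limma) was reached by 1 of the 29, and by 5.12% of all tested probe sets. That gene was FOXO1, a transcription factor downstream of the kinase AKT, at 0.46 ± 0.21 (unadjusted p = 0.0456, adjusted p = 0.918, limma). GNB1, a G protein beta subunit, differed by 0.33 ± 0.17 (its other probe sets gave 0.13 ± 0.22 and -0.17 ± 0.27). RAC2, a GTPase of cell movement, differed by 0.27 ± 0.17 (another probe set gave 0.15 ± 0.28). RGS1, which damps chemokine receptor signals, differed by 0.31 ± 0.49. Of 8 tested receptors for other chemoattractants, 2 had higher and 6 lower means (median -0.17), among them PTGDR2 at -0.47 ± 0.27, the platelet-activating factor receptor PTAFR at -0.46 ± 0.42 and the complement receptor C5AR1 at -0.35 ± 0.32. Of 17 tested transcription factors of receptor-bearing cells, 10 had higher and 7 lower means (median 0.080), and 3 had an unadjusted p under 0.05. NR4A1, needed by patrolling monocytes, differed by -0.79 ± 0.29 (another probe set gave -0.69 ± 0.53). BATF, a factor of T cell differentiation, differed by 0.50 ± 0.21 and TCF7 by -0.37 ± 0.18 (another probe set gave 0.080 ± 0.23). At the brightest probe set each of the 3 had an adjusted p of 0.918 (limma). TBX21, which drives CXCR3, differed by 0.012 ± 0.27, and KLF2, a factor of naive T cell trafficking, by 0.13 ± 0.23, with -0.16 ± 0.27 in its other probe set.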

How the data were processed

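The deposited table gives a linear MAS5 intensity per probe set and array; MAS5 comes from the submitters' processing notes, which give no version. The trimmed mean of every deposited array was 500.0, so the authors had scaled the arrays to 1 common trimmed mean. Intensities under 16 were set to 16 and log2 was taken. After 99 control probe sets were left out, the 50% with the higher mean were tested, 26383 in all (geometric mean of at least 87.7). Of 52865 probe sets, 24969 carried 1 gene symbol, 361 several and 27535 none. The brightest tested probe set stood for a gene. CR was compared with control in limma 3.58.1 under R 4.3.3 (mean-variance trend, two-sided, Benjamini-Hochberg adjustment over all tested probe sets, threshold 0.05), and the procedure was also run on simulated data. The simulated probe sets varied independently, so that run does not cover variation shared by many probe sets of an array. Correlations over the 14 arrays used 100000 seeded permutations, two-sided, and those over 7 arrays all orders (exact). The receptor pairs were added to the 8 planned relations. Relations for CCR2 (not tested) and CXCR5 (no probe set listed) were not run. The titles call the samples biological replicates. Replicate numbers are shared between diets but are of different animals, so same-numbered arrays were not treated as pairs. Such arrays deviated together at r of -0.11 to 0.18 over 7 pairs, above 0.1 for numbers 2, 4, 5 and 7. Named genes were all members, the 3 smallest p or any called gene of each pathway list, 16 fixed genes (8 tested) and the 3 genes most like each receptor. BATF, TCF7 and FOXO1 fall under the list rule. The members and lists were chosen with earlier results of these data known. Batch, slide and scan date were not given in the sources used here. Arrays have no depth, and the number of arrays limits the precision. No sequences are given, because no sequence table was used here.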

Additional observations from a re-analysis of the deposited data

Results flagged for a closer look

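In 36 groups of 7 arrays (8 receptors and 10 marker scores in each diet), 1 held an array far from the rest, and chance alone flags about 1 in 20 such groups. Control 1 had a nonclassical monocyte marker score of -2.48, with a gap to the next array of 0.809 of the range, above the limit of 0.568. CX3CR1, a receptor of these cells, was at 131 in control 1, the lowest of the controls, and CCR1 was at 234, also the lowest of the controls. The lymphocyte receptors CXCR3 (421) and CCR7 (261) were lowest of the controls there too, while CCR6 (269) was the highest of all 14 arrays. Control 1 also had the highest GAPDH 3-prime to 5-prime ratio of the 14 arrays (7.50 in log2). The part of this array's cell makeup, or of what this ratio reflects, in these values was not tested.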

How the results depend on the processing

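The count of called probe sets and of called receptors was 0 in each of 26 alternatives, and the smallest adjusted p ran from 0.085 to 0.994. CXCR4 and CXCR6 kept their direction in all, CCR1 in 23 of 25. Reversed receptor differences were 0.41 (CCR1) and 0.28 (CCR7) with the monocyte score as a covariate; 0.24 (CCR1), 0.10 (CCR7) and -0.026 (CXCR3) without CR 6 and CR 7; 0.083 (CCR7) and 0.095 (CX3CR1) with the GAPDH 3-prime to 5-prime ratio as a covariate; 0.010 (CX3CR1) with quantile normalization; and -0.025 (CXCR3) with array weights. The cause was not tested. The GAPDH ratio, taken as a measure of RNA quality, averaged 6.14 in controls (5.07 to 7.50, highest in control 1) and 6.58 in CR (6.03 to 6.87), all in log2. On every array the 3-prime signal was the higher, by 5.07 log2 units or more. The part of this in the receptor values was not tested beyond the covariate fit. With 1 array left out, differences ran from -0.46 to -0.039 for CCR1, -0.15 to 0.038 for CCR6, -0.39 to 0.0076 for CCR7, -0.17 to 0.072 for CX3CR1, -0.0086 to 0.22 for CXCR3, 0.079 to 0.37 for CXCR4 and 0.17 to 0.46 for CXCR6. The replicate block, fitted although the numbers share no animal, left 0 calls, and 1 of 7 control arrays correlated best with the CR array of its own number. The mean over a gene's probe sets was not run, since each receptor has 1. In the upper 25% by signal only CCR7, CXCR3 and CXCR4 were tested.

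For CCR1 with the monocyte score r ran from 0.831 to 0.897 with 1 array left out, and was 0.845 within controls and 0.914 within CR, neither passing with 7 arrays. For CXCR6 with the NK score it was -0.026 within controls, 0.807 without the 2 farthest arrays, and 0.373 to 0.771 with 1 left out. For CX3CR1 with the monocyte score it was 0.044 with quantile normalization, 0.474 within controls, 0.544 without CR 6 and CR 7 (also the 2 farthest arrays) and -0.235 to 0.336 with 1 left out; with the NK score it was -0.219 without CR 6 and CR 7, -0.031 within controls and -0.139 to 0.319 with 1 left out. For CCR6 with the B cell score it was -0.361 within CR and -0.030 to 0.255 with 1 left out. The CXCR3 and CX3CR1 pair, added after seeing the data, ran from 0.786 to 0.936, and lost its call without CR 6 and CR 7 (0.786, adjusted p = 0.0615) and within each diet.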
